A study of Mus musculus with 10 samples.

Results

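The 10 genes described here encode the AP-1 and Egr immediate early factors of mouse keratinocytes: Fos, Fosb, Fosl1 and Fosl2 of the Fos family, Jun, Junb and Jund of the Jun family, and the zinc finger factors Egr1, Egr2 and Egr3. They were read on every probe set annotated to one of them alone, which gave 16 probe sets of 45101 on the array, and 0 further probe sets were annotated to a member together with another gene. On this array a transcript is read by a set of short oligonucleotides, whose signals are combined into 1 value. Of the members, 6 had 2 probe sets each and 4 (Fos, Fosb, Junb and Egr1) had 1. RNA came from primary keratinocytes, epithelial cells grown out of mouse skin, of Sgpp1-/- mice (KO) and Sgpp1+/+ mice (WT), held for 3 to 4 days in EMEM with 0.05 mM calcium and 8% fetal calf serum, and each of the 5 KO and 5 WT samples was hybridised to 1 array. Sgpp1 encodes sphingosine-1-phosphate phosphatase 1, which acts on a signalling lipid. The labels give neither the age of the mice, nor how the allele was made, nor whether each sample stands for its own animal or culture. The spread behind every p-value is therefore that among the samples as given, which may be technical. The KO samples carry the numbers 8, 9, 10, 21 and 23 and the WT samples the numbers 1 to 5.

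Immediate early genes are transcribed within minutes of a growth factor, serum or stress signal, without new protein synthesis, through factors already bound at their promoters, such as serum response factor with its Elk partners and CREB. Fos proteins pair with Jun proteins through leucine zippers to form AP-1, which binds the letters TGANTCA. Egr proteins bind GC-rich sites through zinc fingers. In the epidermis AP-1 sites lie in the control regions of genes such as those for involucrin and loricrin, and Fos, Jun and Egr transcripts are also known to rise when cells are handled or stressed.

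The stretches before the transcription start are shown for the genes on which the account turns. These are Fos and Fosb, whose signal was high on the same arrays, and Jun, whose signal was not. Egr2 is added because the window shown, chosen among those of its 5 starts, held the rarest of the motifs searched. The stretches are the 250 bases before the start in RefSeq's GRCm38.p6 annotation, 5′ to 3′ on the gene's strand. Capitals mark matches on either strand to the motifs named after them.
Fos, chr12:85473640-85473889, plus strand: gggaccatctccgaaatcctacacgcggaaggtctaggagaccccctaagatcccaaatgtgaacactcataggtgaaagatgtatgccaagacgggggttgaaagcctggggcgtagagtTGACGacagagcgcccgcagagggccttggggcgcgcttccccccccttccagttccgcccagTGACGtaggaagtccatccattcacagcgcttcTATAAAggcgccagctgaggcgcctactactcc
Fosb, chr7:19310046-19310295, minus strand: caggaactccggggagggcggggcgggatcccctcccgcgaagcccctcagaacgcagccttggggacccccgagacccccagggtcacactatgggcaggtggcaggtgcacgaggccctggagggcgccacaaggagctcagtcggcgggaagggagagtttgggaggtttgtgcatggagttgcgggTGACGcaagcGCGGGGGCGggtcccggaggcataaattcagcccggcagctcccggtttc
Jun, chr4:95052223-95052472, minus strand: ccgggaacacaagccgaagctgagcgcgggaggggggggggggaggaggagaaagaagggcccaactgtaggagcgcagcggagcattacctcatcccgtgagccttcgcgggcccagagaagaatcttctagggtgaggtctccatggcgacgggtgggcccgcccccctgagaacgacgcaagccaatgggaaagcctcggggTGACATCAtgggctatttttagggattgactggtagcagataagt
Egr2, chr10:67537619-67537868, plus strand, the third of 5 annotated starts: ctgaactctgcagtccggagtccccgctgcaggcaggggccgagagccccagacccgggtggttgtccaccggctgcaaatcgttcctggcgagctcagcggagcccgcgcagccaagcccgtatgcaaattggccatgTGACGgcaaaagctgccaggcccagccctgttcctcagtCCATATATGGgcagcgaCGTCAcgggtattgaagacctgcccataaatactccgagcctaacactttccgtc
The motifs searched were TGACG (the core of the site of CREB and its relatives), TGANTCA (the AP-1 site), TGACATCA (a variant of it known from the Jun promoter), TATAAA, the CArG box (the site of serum response factor) and GCGNGGGCG (the Egr site). None of them overlapped another in these 4 windows. TGACG stood at 129 and 66 bases before the start of Fos and at 60 bases before that of Fosb, and 17.8% of all 32851 such windows hold it. TATAAA stood at 33 bases before the Fos start (12.4% of all windows). GCGNGGGCG stood at 50 bases before the Fosb start, as GCGGGGGCG (4.7% of all windows). Jun held TGACATCA at 45 bases before the start, which 2.93% of all windows hold. The Egr2 window shown held a CArG box, CCATATATGG, at 72 bases before the start, which 1.47% of all windows hold. It also held TGACG letters on either strand at 111 and 55 bases. Of the other Egr2 windows, that of start 1 held none of the motifs. That of start 2 held only another CArG box, CCTTTTTTGG, at 72 bases. Those of starts 4 and 5 overlap the one shown and held its CArG box at 73 and 133 bases. The rate is per window and does not allow for this choice among 5 starts. The search ended at 250 bases, so CArG boxes farther from any start, that of Fos included, were not looked for. TGANTCA was in none of these 4 windows (6.75% of all windows). Windows were listed for 7 members, and the source used here listed none for Fosl1, Egr1 and Egr3. Of the members with no window shown, Junb held TGACG at 106 bases before the start and Fosl2 held GCGNGGGCG at 79 bases. Jund held none of the motifs. TGACG and GCGNGGGCG are thus not particular to Fos and Fosb.

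Values are RMA log2 signals, so a difference of 1 is a doubling of signal. Array medians lay between 5.02 and 5.17. The targeted gene Sgpp1 was read only on the probe set, annotated to it alone, with the highest mean over the 10 arrays. Such a choice can favour a probe set high in 1 genotype. It read 8.46 to 9.03 on the KO arrays and 6.25 to 8.33 on the WT arrays, higher on each KO array than on each WT array. The difference was 1.15 (SE 0.33, limma adjusted p = 0.156). This probe set thus does not check the labels, and all directions rest on the labels alone. It is not known whether it lies in the disrupted part. Array WT 1 stood farthest from the others, with a mean correlation of 0.955 over all probe sets against 0.967 to 0.977 for the rest. All 10 keratinocyte markers were well measured (8.87 to 13.12), while Col1a1 and Col1a2 of fibroblasts, Tyrp1 and Dct of melanocytes and Lyz2 and Tyrobp of myeloid cells were also present. Their levels differed between arrays: the summed signal of 7 fibroblast markers ran from 10.40 to 12.28 on the KO arrays and from 10.39 to 13.71 on the WT arrays, of 6 melanocyte markers from 11.20 to 12.95 (KO) and from 9.53 to 12.98 (WT), and of 8 myeloid markers from 8.38 to 11.04 (KO) and from 9.08 to 11.09 (WT). Not all markers of these lists were well measured. Of the myeloid list, Ptprc, Itgam, Cd207 and Adgre1 did not exceed 3.72 on any array, Cd74 reached 5.26 and Csf1r 7.25. Of the fibroblast list, Lum did not exceed 2.92, while Col3a1, Dcn, Pdgfra and Fbln1 reached 6.90 or more. The brightest T cell (Cd3d, Cd2), endothelial (Pecam1, Kdr), mast cell (Tpsb2, Kit) and muscle (Des, Myh11) markers did not exceed 5.89 on any array. None of these marker genes was called by limma between KO and WT, and of the markers of other cells Fbln1 (fibroblasts) and Emcn (endothelium) had an unadjusted p under 0.05, both lower in KO. The part of these other cells in the values below was not tested.

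Egr3 was the member that rose in KO keratinocytes, and it did so on 1 of its 2 probe sets. Of the 16 member probe sets, 1 was higher and 0 lower in KO (limma, Benjamini-Hochberg adjusted p under 0.05 over 45037 probe sets), and 15 were not called. Over all probe sets 1.27% were called, 1.13% higher and 0.142% lower. On 2 member probe sets, of Egr3 and Jun, every KO array lay above every WT array, against 2.28% of all probe sets, or 3.14% for groups apart in either direction. An unadjusted p under 0.05 was reached by 5 of the 16, of Egr3, Jun (both probe sets), Junb and Fosl2, against 10.1% of all probe sets. The median difference of the 16 was 0.25 against -0.02 over all probe sets, and 12 of the 16 were positive, against 46.9% of all probe sets. These counts take 6 of the 10 genes more than once. On the brightest probe set of each gene, 7 of the 10 members were positive, against 47.6% of all genes. Their median was 0.34, against -0.01 over all genes. In these bulk samples a change in the number of cells of a type and a change in RNA per cell cannot be told apart.

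**Figure D1:**
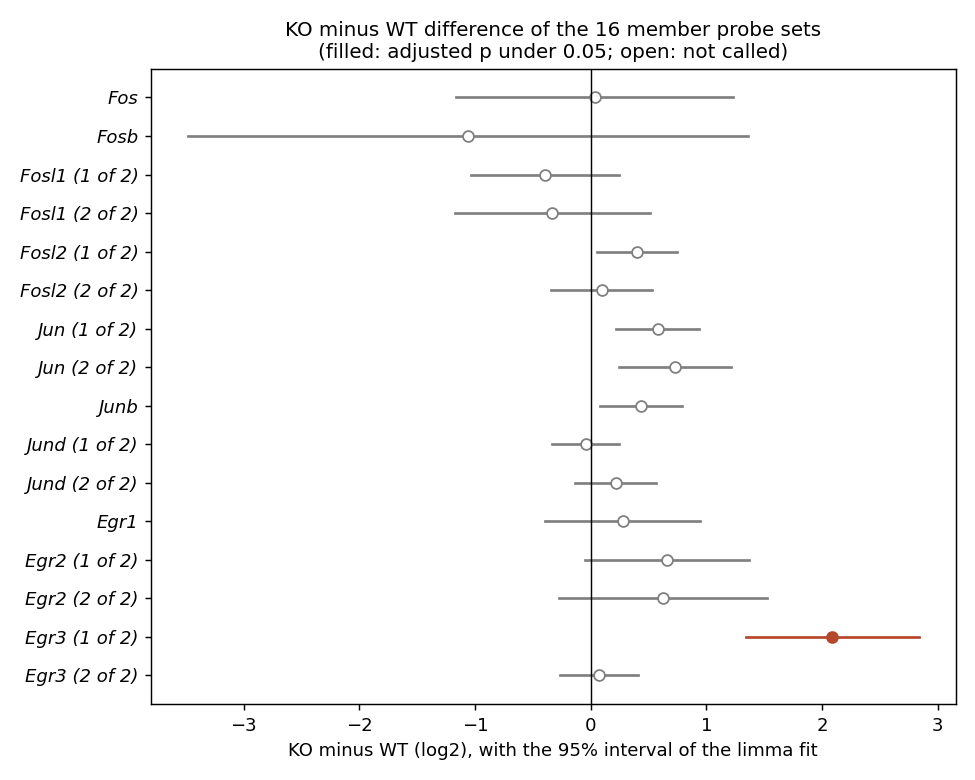
KO minus WT difference in log2 signal (x axis) of each member probe set (rows; 1 of 2 is the brighter of a pair), with the 95% interval of the limma fit. Egr3 (1 of 2), filled, lies at 2.09 and is the one probe set called; Fosb has the widest interval, from -3.48 to 1.36.

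Fos and Fosb, the Fos family members with a strong activation domain, were not called between the genotypes, and their signal varied widely from array to array. Fosb read 7.36 on KO 8, 3.67 on KO 9, 4.31 on KO 10, 3.67 on KO 21 and 3.63 on KO 23. On the WT arrays it read 9.22 (WT 1), 7.60 (WT 2), 3.58 (WT 3), 3.56 (WT 4) and 3.97 (WT 5). One KO array and 2 WT arrays were thus high and the other 7 low, with a gap of 3.05 between the lowest of the high values and the highest of the low ones. Fosb averaged 4.53 ± 1.61 in KO and 5.59 ± 2.65 in WT (SD, n = 5 each), a difference of -1.06 with a 95% interval of -3.48 to 1.36 (limma adjusted p = 0.887). Leaving out 1 array moved it between -1.77 (without KO 8) and -0.15 (without WT 1). Its lowest value lay at the 27.4th percentile of the array, where RMA compresses differences.

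Fos read 8.995 on KO 8, 6.88 on KO 9, 7.44 on KO 10, 7.14 on KO 21 and 6.65 on KO 23, and 8.45, 8.85, 6.26, 6.45 and 6.92 on WT 1 to WT 5. The same 3 arrays were the highest, 1.01 above the next. Fos averaged 7.42 ± 0.93 in KO and 7.39 ± 1.19 in WT (SD, n = 5 each), a difference of 0.03 with a 95% interval of -1.16 to 1.23 (limma adjusted p = 0.997). Without the 3 arrays the differences were 0.48 for Fos (SE 0.23, limma adjusted p = 0.444) and 0.11 for Fosb (SE 0.20, adjusted p = 0.883). With all arrays the SE was 0.55 for Fos and 1.12 for Fosb. The arrays left out are those on which both genes read highest, so the smaller SE follows from that choice.

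**Figure D2:**
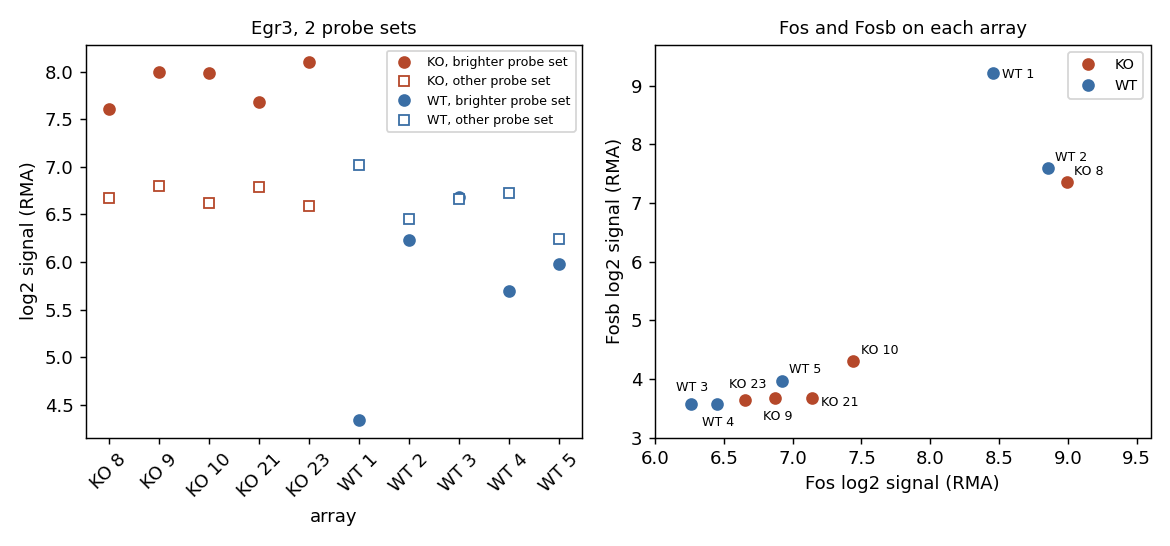
Left, log2 signal of the 2 Egr3 probe sets on each array: the brighter one (circles) is at 7.61 to 8.10 on the KO arrays and at 4.34 to 6.69 on the WT arrays, while the other one (squares) overlaps. Right, Fosb against Fos log2 signal, 1 point per array: KO 8, WT 1 and WT 2 stand apart from the other 7 arrays.

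KO 8, WT 1 and WT 2 also carried the highest signal of the poly-A spike-ins, bacterial control transcripts that go through the labelling. The mean of their 12 probe sets was 11.03 on KO 8, 11.28 on WT 1 and 10.68 on WT 2, against 9.85 to 10.37 on the other 4 KO arrays and 10.005 to 10.18 on the other 3 WT arrays. By genotype it averaged 10.27 ± 0.47 in KO and 10.47 ± 0.52 in WT (SD, n = 5 each; exact permutation p = 0.548, two-sided). The 3′ minus 5′ signal of Actb, a sign of RNA quality, ran from 0.16 to 0.26 in KO and from 0.17 to 0.29 in WT (exact permutation p = 0.159, two-sided), with KO 8 at 0.21, WT 1 at 0.17 and WT 2 at 0.27. That of Gapdh averaged 1.90 ± 0.22 in KO and 1.89 ± 0.13 in WT (SD, n = 5 each; exact permutation p = 0.921, two-sided). It was low on KO 8 (1.63), WT 1 (1.72) and WT 2 (1.80), and also on KO 23 (1.72). The remaining arrays read 1.92 to 2.10. These 3 arrays were the 3 highest on 2 of the 16 member probe sets, against 5.1% of all probe sets, and the 3 lowest on 0 of the 16, against 2.8%. They were highest by at least 1 on 4 of 45037 probe sets (0.00888%), those of Fosb, Fos, Lynx1 and 1 with no gene assigned. The cut of 1 lies just under the Fos gap of 1.01, and these are the arrays highest on Fos and Fosb. The counts therefore describe these members and do not test them. With the spike-in mean as a covariate, an alternative chosen after seeing the data, the differences were 0.40 for Fos and -0.22 for Fosb. The part of labelling or RNA quality in the Fos and Fosb signal was not tested.

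Among 18194 genes, each on its brightest probe set, those whose profile over the 10 arrays was closest to that of Fos were Rgs2, Atf3, Depdc7, Sncg and Ccdc91, with root mean square differences of 0.47 to 0.50 after centring each gene on its mean, where Fos itself varied by 0.95 about its mean. Atf3, a stress-induced factor that pairs with Jun proteins, read 7.93 on KO 8 and 6.70 to 7.30 on the other KO arrays, and 8.20 on WT 1, 8.00 on WT 2 and 6.56 to 7.05 on the other WT arrays. Nearest to Fosb were Sncg, 2210016F16Rik, Fos, Cpxm2 and Tcf3, at 1.17 to 1.34 against its own 2.03. All these genes, Atf3 included, were chosen for their likeness to Fos or Fosb on these same arrays. Their order over the arrays is therefore no separate finding.

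Fosl1 and Fosl2 encode the Fos relatives Fra-1 and Fra-2, which lack the strong activation domain of Fos. Fosl1 on its brighter probe set read 7.89, 6.78, 7.15, 6.64 and 6.80 on KO 8, 9, 10, 21 and 23, and 8.14, 7.37, 6.78, 7.04 and 7.93 on WT 1 to WT 5. KO 8, WT 1 and WT 5 were its high arrays, and the groups overlapped (difference -0.40, 95% interval -1.04 to 0.24, limma adjusted p = 0.784). Its dimmer probe set differed by -0.33 (95% interval -1.18 to 0.51). Fosl2 on its brighter probe set read 11.05, 11.41, 11.30, 11.25 and 11.31 on the KO arrays in the same order, and 10.41, 10.80, 11.10, 11.16 and 10.86 on WT 1 to WT 5. KO 9, 10, 21 and 23 lay above every WT array and KO 8 did not. The difference of 0.40 (SE 0.16, 95% interval 0.05 to 0.74) had a limma adjusted p of 0.375 and was not called. The dimmer Fosl2 probe set differed by 0.09 (95% interval -0.34 to 0.53).

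Jun, the main partner of Fos proteins and itself an AP-1 target, was higher on average in KO on both of its probe sets, without passing the test over all probe sets. The brighter read 10.23, 10.50, 10.55, 10.63 and 10.26 on KO 8, 9, 10, 21 and 23, and 9.82, 9.44, 10.17, 10.11 and 9.76 on WT 1 to WT 5. Each KO array lay above each WT array, the closest being KO 8 and WT 3. The difference was 0.58 (SE 0.16, 95% interval 0.22 to 0.93), with an exact permutation p of 0.00794, the smallest that 5 against 5 arrays can give, and a limma adjusted p of 0.149. The dimmer Jun probe set read 9.44, 9.83, 9.84, 9.82 and 9.82 on the KO arrays, and 8.49, 8.46, 9.52, 9.45 and 9.19 on WT 1 to WT 5. Here WT 1 and WT 2 were lowest, KO 8 lay below WT 3 and WT 4, and the difference was 0.73 (SE 0.22, limma adjusted p = 0.195). Without WT 1, WT 2 and KO 8 it was 0.44 on this probe set and 0.48 on the brighter one (limma adjusted p = 0.209 and 0.258).

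Junb and Jund encode Jun relatives that activate less strongly than Jun or, in many settings, restrain it. Junb, on its 1 probe set, read 6.34, 6.15, 6.27, 5.69 and 6.13 on the KO arrays and 5.61, 6.06, 5.72, 5.55 and 5.47 on WT 1 to WT 5. KO 21 and WT 2 fell among the values of the other genotype, and the difference of 0.44 (SE 0.16, 95% interval 0.08 to 0.79) was not called (limma adjusted p = 0.324). Jund hardly varied on its brighter probe set, from 11.42 to 11.76 on the KO arrays and from 11.46 to 11.79 on the WT arrays. Its difference was -0.04 with a 95% interval of -0.33 to 0.25, the narrowest of the 16. On its dimmer probe set it was 0.22 (95% interval -0.14 to 0.57).

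**Figure D3:**
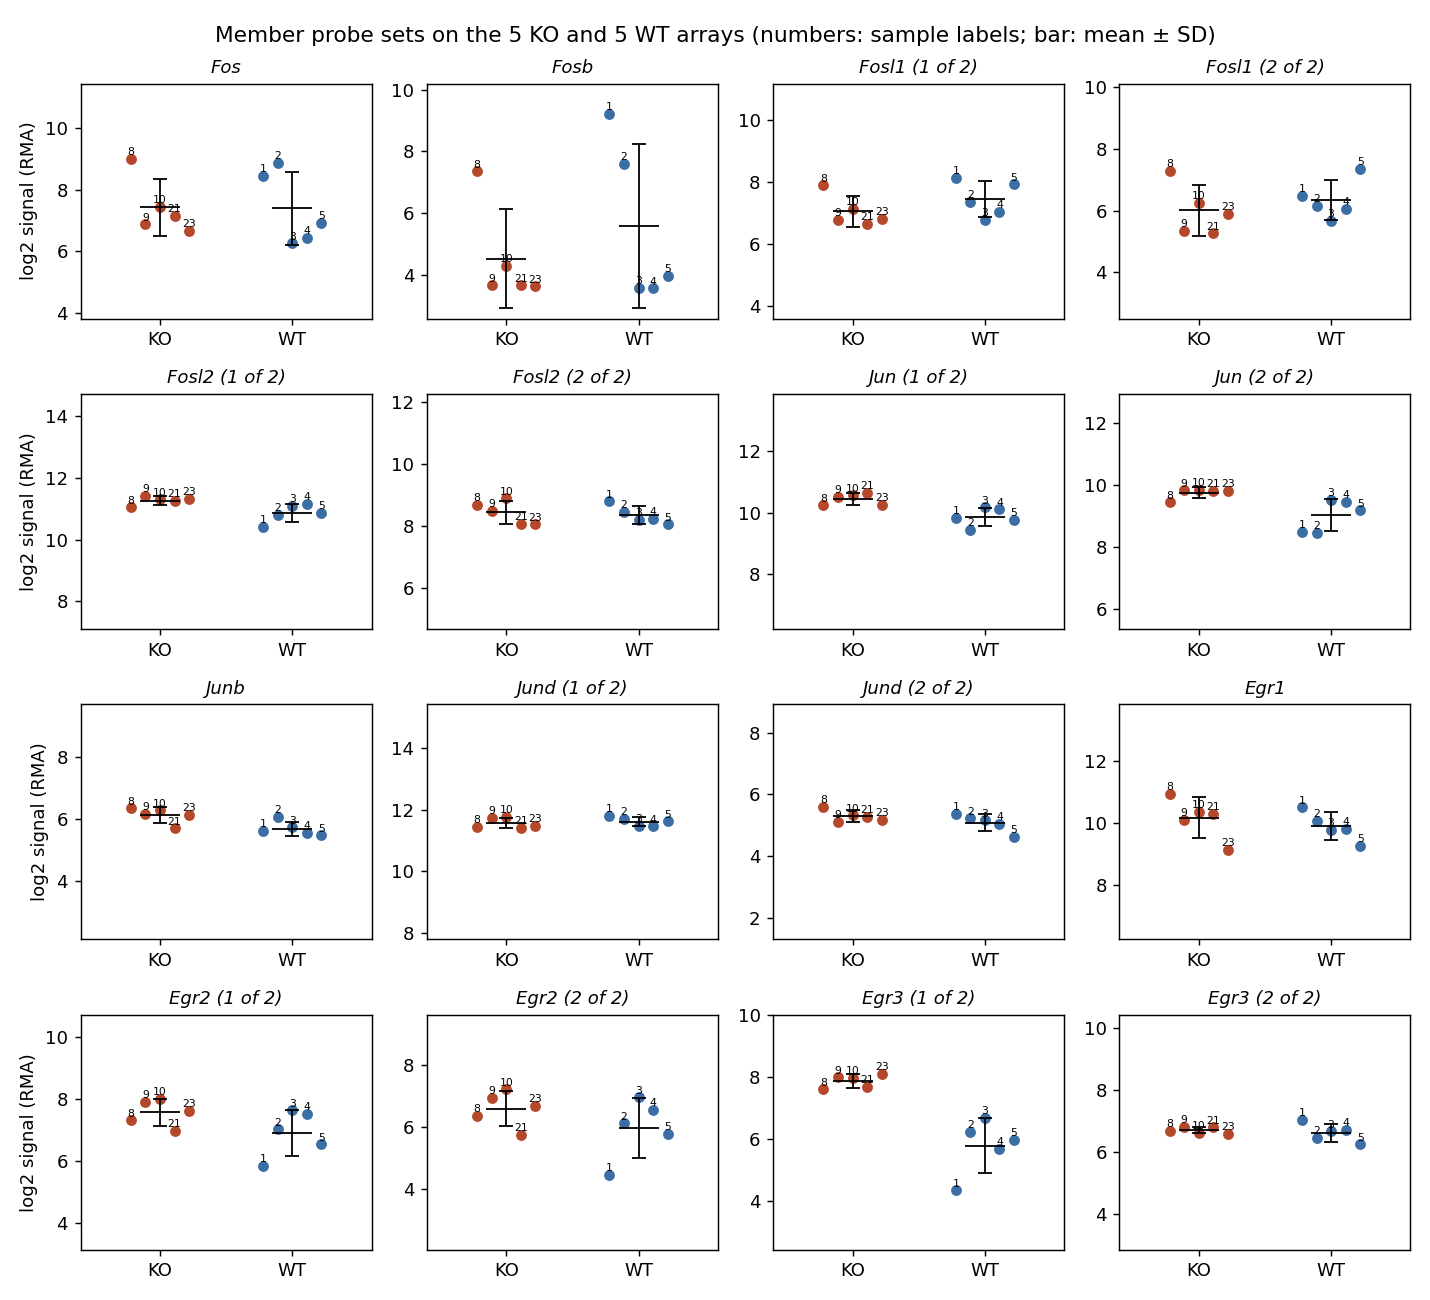
Log2 signal (y axis; each panel spans the same number of units) of the 16 member probe sets on the KO arrays (left in each panel) and the WT arrays (right), 1 point per array with its sample number, and the mean ± SD in black. Egr3 (1 of 2) and Jun (1 of 2) have no overlap between the groups; Fosb has the widest spread in either group.

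Egr1, the serum- and stress-induced zinc finger factor, read 10.94, 10.09, 10.35, 10.29 and 9.11 on KO 8, 9, 10, 21 and 23, and 10.49, 10.07, 9.77, 9.81 and 9.26 on WT 1 to WT 5. KO 8 and WT 1 were highest, as for Fosb in each genotype, and KO 23 and WT 5 lowest. The difference was 0.28 (95% interval -0.39 to 0.95, limma adjusted p = 0.893), and ran from 0.08 (without KO 8) to 0.54 (without KO 23) when 1 array was left out. KO 23 and WT 5 were also the arrays with the highest summed myeloid and melanocyte signal. Tyrobp read 9.04 on each, against at most 7.25 on the others. All 6 melanocyte markers were highest on these 2 arrays, Tyrp1 at 11.35 on KO 23 and 11.14 on WT 5, against at most 10.66 on the others. The part of these cells in the Egr1 signal was not tested. The genes closest to Egr1 over the 10 arrays were Trp63, 4921525D07Rik, Mapk15, Wnt16 and Kcnd3, at root mean square differences of 0.22 to 0.24 against its own 0.53. Trp63, which encodes the p63 factor of basal epithelial cells, read 11.47 on KO 8 and 10.49 on KO 23, and 11.26 on WT 1 and 10.03 on WT 5. Trp63 was chosen for its likeness to Egr1 on these same arrays, so this order is no separate finding.

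Egr2, best known from Schwann cells and hindbrain and from T cells, read 7.31, 7.91, 8.01, 6.96 and 7.61 on the KO arrays and 5.83, 7.01, 7.63, 7.51 and 6.53 on WT 1 to WT 5 on its brighter probe set. WT 1 was the lowest, and the groups overlapped, with WT 3 and WT 4 above KO 8 and KO 21. The difference was 0.66 with a 95% interval of -0.05 to 1.37 (limma adjusted p = 0.550). The other Egr2 probe set gave 0.62 (95% interval -0.27 to 1.52), again with WT 1 lowest, at 4.45. Without WT 1 the differences were 0.39 and 0.24.

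Egr3, a close relative of Egr1 that is itself induced through calcium and MAP kinase signals in T cells, stood apart between the genotypes on its brighter probe set. It read 7.61 on KO 8, 8.00 on KO 9, 7.99 on KO 10, 7.69 on KO 21 and 8.10 on KO 23. On the WT arrays it read 4.34 (WT 1), 6.23 (WT 2), 6.69 (WT 3), 5.69 (WT 4) and 5.98 (WT 5). The KO arrays lay close together and all above the WT arrays, which spread widely, with WT 1 far below the rest. Egr3 averaged 7.88 ± 0.21 in KO and 5.79 ± 0.89 in WT (SD, n = 5 each). It rose by 2.09 (SE 0.34) on the log2 scale, which is 4.26-fold with a 95% interval of 2.54-fold to 7.14-fold (limma adjusted p = 0.00878).

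The Egr3 rise was not seen on the other probe set of the gene. That one read 6.67, 6.80, 6.62, 6.79 and 6.59 on KO 8, 9, 10, 21 and 23, and 7.02, 6.46, 6.66, 6.72 and 6.25 on WT 1 to WT 5, a difference of 0.07 with a 95% interval of -0.26 to 0.41. The within-array difference between the brighter and the dimmer probe set was 1.18 ± 0.27 in KO and -0.84 ± 1.104 in WT (SD, n = 5 each), and the gap of 2.02 had an exact permutation p of 0.00794 (two-sided), or 0.0476 adjusted over the 6 such pairs. In the other 5 pairs, of Fosl1, Fosl2, Jun, Jund and Egr2, the probe sets of a gene differed by -0.26 to 0.30 in their KO minus WT differences (exact permutation p = 0.206 to 0.802). The table used here gives no accession for the Egr3 probe set that rose, so which part of the transcript it reads was not analysed here, and the rise is that of this probe set.

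Of the 2 Egr3 probe sets, the one that rose is the brighter over all 10 arrays (mean 6.83, against 6.66 for the other) only through its KO values, since on the WT arrays it averaged 5.79 and the other 6.62. Wherever Egr3 is read on 1 probe set, that choice fixes that the called one is used. The call on this probe set held when any 1 array was left out, with differences of 1.73 to 2.31 (limma adjusted p = 0.00262 to 0.0368), without WT 1, WT 2 and KO 8 together (1.82, adjusted p = 0.0156), and with the poly-A spike-in mean as a covariate (1.93, adjusted p = 0.00755). The sample titles carry a further number, here called array position, which runs from 1 to 5 in WT and from 6 to 10 in KO. Whether it marks an order of hybridisation is not stated. With this number as a covariate, 0 of 45037 probe sets were called by limma (1833 at an unadjusted p under 0.05). Egr3 then differed by 1.28 (SE 0.68, adjusted p = 0.959). Whatever this number stands for and genotype cannot be told apart.

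The genes whose profiles lay closest to Egr3 over the 10 arrays were Sdr16c6, Smpdl3a, Elovl4, Mreg and Megf9, at root mean square differences of 0.13 to 0.31 against the 1.19 by which Egr3 varied about its own mean. Sdr16c6, a short-chain dehydrogenase gene, read 8.41, 9.10, 9.01, 8.63 and 8.99 on KO 8, 9, 10, 21 and 23, and 5.26, 7.34, 7.58, 6.42 and 7.08 on WT 1 to WT 5. Like Egr3 it was lowest on WT 1 and higher on each KO array than on each WT array. Since it was chosen for its likeness to Egr3 on these same arrays, this order is no separate finding. Elovl4, encoding an elongase of very long chain fatty acids, read 10.21 to 10.78 on the KO arrays and 7.62 to 9.39 on the WT arrays.

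**Figure D4:**
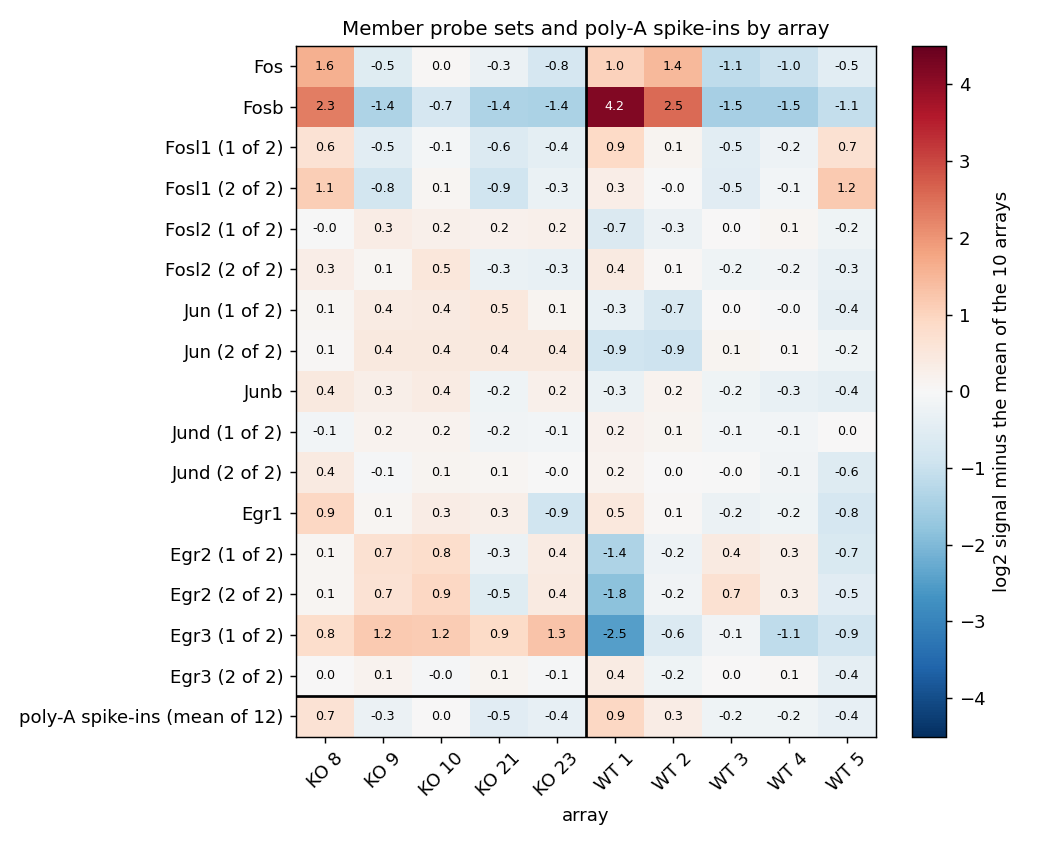
Log2 signal of each member probe set minus its mean over the 10 arrays (colour and printed value), with the mean of the 12 poly-A spike-in probe sets in the last row; KO arrays are left of the line and WT arrays right. Fos, Fosb and the spike-ins are high on KO 8, WT 1 and WT 2, while Egr3 (1 of 2) separates the genotypes.

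The members' partners, regulators and targets were read on the probe set of each gene with the highest mean over the 10 arrays, a choice that can favour a probe set high in 1 genotype, as it did for Egr3. Of all 18194 genes read so, 1.82% were called higher and 0.165% lower, 12.6% had an unadjusted p under 0.05, 47.6% of the differences were positive and 52.4% negative, and their median was -0.01. Of 14 measured dimer partners and Egr co-repressors, 0 were called by limma, and 4 had an unadjusted p under 0.05 (median 0.09). The 2 with the smallest p were Maff, a small Maf factor, which differed by 0.75, and Nab2, a co-repressor of Egr proteins and a known Egr target, which differed by 0.47 (limma adjusted p = 0.318 and 0.341). Of 18 kinases and factors upstream of these genes, 0 were called and 4 had an unadjusted p under 0.05 (median 0.00), with Map2k4 at 0.50 and Mapk14, the p38 kinase gene, at 0.38 (adjusted p = 0.178 and 0.250). Of 13 genes of feedback and output of the ERK pathway, 0 were called and 4 had an unadjusted p under 0.05, all lower in KO. Their median was -0.23 and 10 of 13 were lower on average, with Spred1 at -0.42 and Spred2 at -0.42, inhibitors of Ras to ERK signalling (adjusted p = 0.240 and 0.284). Of 5 genes of AP-1 protein turnover, 0 were called and 0 had an unadjusted p under 0.05, with Cop1 at 0.27 and Usp28 at 0.28.

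Of 45 other immediate early genes, 3 rose and 0 fell, and 16 had an unadjusted p under 0.05, 12 of them higher and 4 lower (median 0.12, with 30 of 45 positive). Klf4, encoding a factor of the differentiating epidermis, read 10.40 to 10.78 on the KO arrays and 9.30 to 9.91 on the WT arrays, 1.99-fold higher (limma adjusted p = 0.00666). Pim1, a kinase gene, rose 1.90-fold (adjusted p = 0.00881). Zfp36, encoding tristetraprolin, which speeds the decay of AU-rich messages, rose 1.72-fold (adjusted p = 0.0145), and was not called without KO 9 (adjusted p = 0.0603) or KO 10 (0.0553). Without WT 1, WT 2 and KO 8 together, Klf4 was called, while Pim1 (adjusted p = 0.0676) and Zfp36 (0.0888) were not.

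Of 16 genes that textbooks give as AP-1 targets in keratinocytes, 4 rose and 2 fell, 8 had an unadjusted p under 0.05, 4 in each direction, and the median was -0.19. The 4 that rose encode proteins of the cornified envelope or their cross-linker: Lor (loricrin) by 7.72-fold, Ivl (involucrin) by 3.26-fold, Tgm1 by 2.19-fold and Sprr1b by 1.98-fold (limma adjusted p = 0.00106 to 0.0190). The 2 that fell were the matrix protease gene Mmp9, 2.96-fold lower (adjusted p = 0.00521), and the urokinase receptor gene Plaur, 2.42-fold lower (adjusted p = 0.0262). Sprr1b lost its call without KO 9, KO 10 or WT 4 (adjusted p = 0.0574 to 0.0638), Tgm1 without KO 9 (0.0699) or WT 4 (0.0544), and Plaur without KO 8, 9, 10, 21, WT 1 or WT 4 (0.0520 to 0.0931). Without WT 1, WT 2 and KO 8 together, 2 of these 16, Lor and Ivl, were called higher and 0 lower (Mmp9 adjusted p = 0.0538). Of 11 heat shock genes, which stress induces, 5 had an unadjusted p under 0.05 (3 higher and 2 lower). By the adjusted p 0 rose and 1 fell, Hsph1, by 0.69 on the log2 scale (limma adjusted p = 0.0350), which was lost in most of the fits that left out 1 array.

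**Figure D5:**
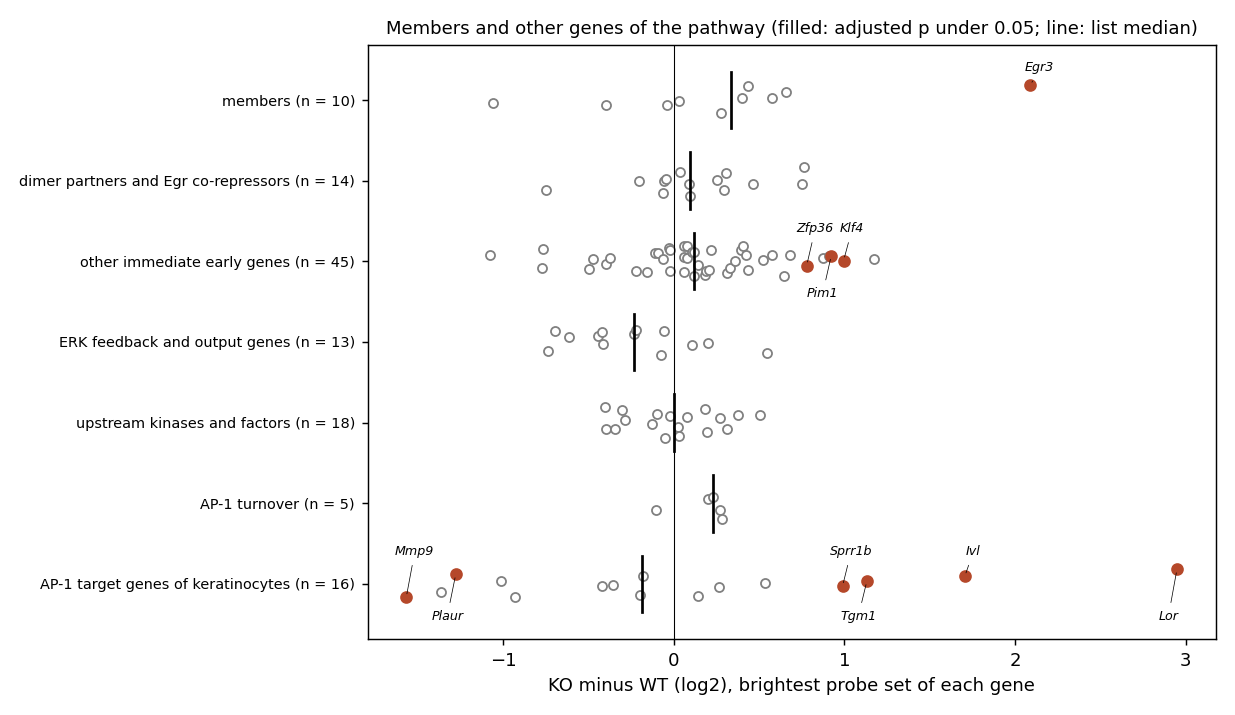
KO minus WT difference in log2 signal (x axis) of the members and of the other genes of the pathway, 1 point per gene on its brightest probe set, by list; filled points are called and the black line is the list's median. Egr3, read on the probe set that its KO values make the brighter, is the one called member, and the called AP-1 targets lie on either side of 0, from -1.57 (Mmp9) to 2.95 (Lor).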

How the data were processed

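Total RNA was extracted with Trizol and biotin-labelled cRNA was made from 6 µg of it for Affymetrix Mouse430_2 arrays, per the labels' protocols. The deposited values are log2 signals from RMA, as the submitters' processing notes name it. RMA corrects background, brings the arrays to 1 distribution and summarises each probe set, which hides any change shared by most genes and compresses differences near background. The version is not given in the sources used here. All 10 columns were used as deposited, with 0 left out, and precision is limited by having 5 arrays of each genotype.

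Of the probe sets, 64 controls were left out of the tests, 34945 were annotated to 1 gene, 932 to several and 9160 to none. Of the 34945, 34741 were matched by gene identifier to RefSeq's GRCm38.p6 table for current symbols. Of 24 upstream genes, 15 partners, 14 ERK pathway genes and 17 AP-1 targets listed, those without a probe set of their own were not analysed here.

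KO minus WT was fitted by a two-sided linear model (lmFit, then eBayes) in limma 3.58.1 under R 4.3.3 on 45037 probe sets, with Benjamini-Hochberg adjustment and a threshold of 0.05. SE is the moderated standard error, and intervals are 95%. The fit was tested on simulated data with known changes. It called 60% of 100 changes of 1 and 93% of 100 changes of 2 on the log2 scale, with 5 false calls. A change of 1 or less can thus go uncalled. Single values were compared by exact permutation, two-sided, across the 252 ways to assign arrays to genotypes. Alternatives were another variance prior, array weights, centring, a filter on dim probe sets, 1 probe set per gene, array position, poly-A signal, and leaving out arrays.

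The named genes are all member probe sets, Sgpp1, the called genes of each list (at most 6) or the 2 with the smallest p, the 2 brightest markers of other cell types, and the 5 nearest profiles. Lynx1, Fbln1, Emcn and the further myeloid and fibroblast markers named fall outside this rule and were chosen after their values were seen. For the likeness, each gene stood on its brightest probe set. The members and lists were chosen with earlier results of these data known.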

Additional observations from a re-analysis of the deposited data

Results flagged for a closer look

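Among the 32 groups of 5 values (16 member probe sets in KO and in WT), 2 held a value far from the other 4, by Dixon's criterion at the 95% level, which chance alone passes in about 5% of groups. Fosb read 7.358 on KO 8, the highest of the KO arrays, the next being KO 10 at 4.31. The dimmer Jun probe set read 9.438 on KO 8, the lowest of the KO arrays, where the other 4 lay between 9.82 and 9.84. Among KO arrays, KO 8 was also first in poly-A spike-in signal, at 11.03, whose part in either value was not tested.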

How the results depend on the processing

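The member count of 1 called probe set and the Egr3 call held under the alternatives run, except array position as a covariate and leaving aside 1 probe set per gene, which keeps the called Egr3 probe set by construction. Array position gave 0 called members, 0 of 45037 probe sets and 0 listed genes, with Egr3 at 1.28. With array weights 1896 probe sets were called (1242 higher and 654 lower) against 572 (508 and 64) in the fit reported. Leaving out single arrays gave 301 (without KO 9) to 557 called probe sets, with 321 without KO 10 and 335 without WT 4, and 5 (without KO 9) to 11 listed genes against 10, with 6 without KO 10 and 6 without WT 4. Without WT 1, WT 2 and KO 8 together 4 listed genes were called. Differences that were not called changed sign as follows. Fosb was 2.25 with array position and 0.11 without the 3 arrays, against -1.06. Jund (brighter) was 0.11 with array weights and 0.0782 without the 3 arrays, against -0.04, and Egr2 was -0.42 and -0.95 on its 2 probe sets with array position. When single arrays were left out, Fos ran from -0.36 to 0.40, the dimmer Fosl2 from -0.0184 to 0.21, the brighter Jund from -0.0907 to 0.0024 and the dimmer Egr3 from -0.0218 to 0.17. Among those that kept their sign, Fosb ran from -1.77 to -0.15, Fosl1 from -0.61 to -0.23 and from -0.65 to -0.08, the dimmer Jund from 0.10 to 0.29, Egr1 from 0.08 to 0.54 and Egr2 from 0.39 to 0.84 and from 0.24 to 0.87. The contrast between probe sets of 1 gene ran from -0.20 to 0.0720 for Fosl1 and from -0.0324 to 0.15 for Egr2, and from 1.56 to 2.23 for Egr3. The cause was not tested. No paired analysis was possible because KO and WT share no sample number. With 5 arrays a group, the wide Fos and Fosb intervals do not exclude 2-fold differences.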
